A study of Rattus norvegicus with 6 samples.

Results

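Sodium channel, pacemaker channel and gap junction genes were examined in 6 single-colour Agilent arrays of rat heart RNA. The 7 genes were Scn4b and Scn3b (sodium channel beta subunits), Hcn2 and Hcn4 (pacemaker channels), and Gja1, Gja5 and Gjc1 (connexins). They were taken as the non-control probes bearing these gene names. That rule found 6 genes with 1 probe each among 30367 non-control probes, and Gjc1 was added because its probe carries the older name Gja7 and was matched through its RefSeq accession. All 7 genes were among the 17536 genes tested and stood well above background on 6 of 6 arrays, so no member was lost to the filter on dim probes.

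The AACO group (n = 3) received AACO, a formula of Chinese medicine that the labels do not spell out, at 0.386 µg/g once a day for 8 weeks, and the control group (n = 3) received double-distilled water. All animals were described as having TAC (in heart failure research, transverse aortic constriction), so the controls carried the same operation and no heart without TAC was analysed here. Hearts were taken 24 h after the final dose. The series text speaks of mice, whereas the labels give Rattus norvegicus and the probes were placed on rat build rn4. Strain, sex and age were not given in the sources used here.

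Ventricular and atrial myocytes fire when the pore-forming sodium channel opens, and beta subunits tune how much of that channel reaches the membrane and how it inactivates. HCN channels carry the funny current that brings pacemaker cells to threshold, with Hcn4 the main form in the sinus node and conduction system and Hcn2 more widely present in myocardium. Connexins join neighbouring cells electrically: Gja1 in working myocardium, Gja5 in atria, Purkinje fibres and arterial endothelium, and Gjc1 in nodal tissue. Pressure overload of the heart is known for remodelling all 3 kinds of channel.

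All levels below are log2 processed signal relative to the same array's 75th percentile, so 0 marks a spot as bright as that percentile, and the level of one probe is not set against another's. None of the 7 genes differed between AACO and control at an adjusted p under 0.05 (limma, Benjamini-Hochberg over all genes). Among all genes tested, 11.3% differed, 6.32% higher and 4.94% lower with AACO. The median log2 fold change of the 7 genes was 0.12 and that of all genes 0.04. Scn4b, Hcn4, Gja1 and Gjc1, 4 of the 7, had fold changes above 0, beside 54.8% of all genes. At an unadjusted p under 0.05, 1 of the 7 passed (Scn4b), beside 30.8% of all genes. The groups did not overlap in 1 of the 7, again Scn4b, beside 37.4% of all genes.

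**Figure D1:**
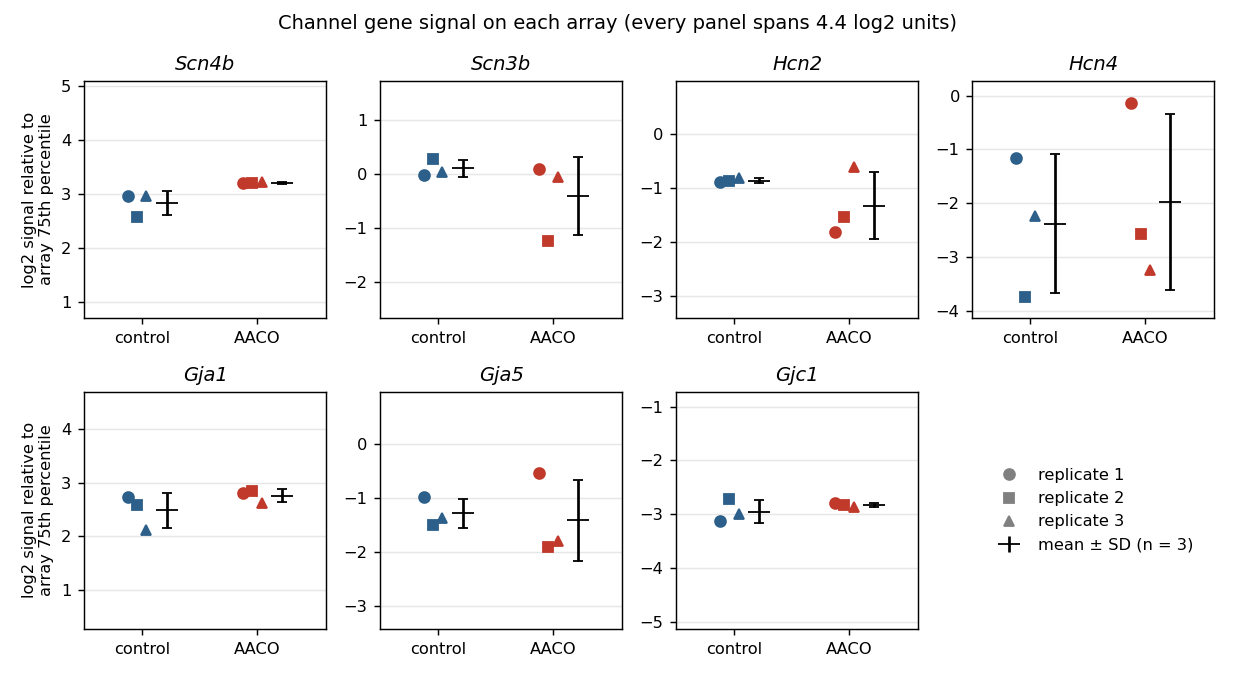
Level of each channel gene on each array, as log2 processed signal relative to the array's 75th percentile, with controls in blue and AACO in red. Symbols mark the replicate, which is a name and not a pairing, and bars give mean ± SD (n = 3). Only Scn4b has every AACO array above every control array, while Hcn4 spreads over 3.60 log2 units.

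Every array had 58717 spots, none of them saturated, and 70.9 to 72.4% of spots were well above background on the AACO arrays against 66.0 to 68.7% on the control arrays. The AACO arrays shared 1 slide and scan and the control arrays another, so slide and treatment cannot be told apart in any difference given here. For the labelled tissue, all 11 cardiomyocyte markers were far enough above background to be tested, and none differed between the groups. Actc1 (cardiac actin) was at 7.59 ± 0.09 with AACO and 7.81 ± 0.21 in controls (SD, n = 3). Macrophage markers fell in 6 of 8 cases, beside 4.94% of all genes. The summed level of that list was 3.69 to 3.78 with AACO against 4.44 to 5.04 in controls. Smooth muscle and pericyte markers summed to 3.52 to 3.85 with AACO against 3.27 to 3.38 in controls. Endothelial markers summed to 4.69 to 4.75 with AACO against 4.85 to 4.97 in controls. Neither pair overlapped, nor did the groups in 37.4% of all single genes. The sums of the sodium channel, sodium channel partner, connexin and intercalated disc lists below did not overlap either. By their brightest probes 0 of 7 and 0 of 8 genes of the smooth muscle and endothelial lists passed the test. A dimmer Myh11 probe gave 0.79 (adjusted p 0.0424), and dimmer Vwf probes gave 2.04 (adjusted p 0.00598) and 0.06 (adjusted p 0.881, limma). The atrial myocyte list overlapped between groups, at 7.37 to 8.00 against 7.26 to 7.87, and none of its 7 tested genes differed. Within that list 2 genes picked after their values were seen stood apart by array: Myl7, an atrial light chain, lay at 4.83 and 6.26 on AACO arrays 1 and 2, at -1.06 on AACO array 3 and between -2.91 and -1.51 in controls. Sln, sarcolipin, lay at 1.39 and 3.85 on the same arrays, at -0.41 on the third and between -1.71 and -0.42 in controls. Mybphl of the same list was also high there, at -2.51 and -0.12, against -5.77 on AACO array 3 and -5.73 to -5.08 in controls. Dkk3 was highest on the same arrays, at 3.74 and 3.43, against 2.47 on AACO array 3 and 2.34 to 3.05 in controls. Stard10 was highest on AACO array 2 only. Myl4 and Nppa of the list did not follow Myl7 and Sln. Myl4, an atrial light chain, was at 6.83, 6.76 and 6.80 with AACO and 6.63 to 6.94 in controls. Nppa, the atrial natriuretic peptide, was lowest on AACO array 1, at 2.80, 5.49 and 5.86 against 4.95 to 6.99. Nerve and Schwann cell markers summed to 2.62, 2.63 and 1.42 with AACO and to 1.07 to 1.53 in controls. Of the 9 tested, 1 was higher and 1 lower, beside 6.32% and 4.94% of all genes. The part of these marker levels in the channel gene values was not tested beyond 1 fit that took the mean of Myl7 and Sln, 2 of the 7 atrial genes, as a covariate.

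Scn4b encodes the beta-4 subunit, a single-pass membrane protein linked to the cardiac sodium channel. Its level was 3.21, 3.20 and 3.23 on the AACO arrays and 2.97, 2.57 and 2.97 on the control arrays. Every AACO array was above every control array, and control array 2 was the lowest. The difference was 0.38 ± 0.13 on the log2 scale (SE; 95% interval 0.06 to 0.71), a 1.30-fold higher mean, with an adjusted p of 0.115 (limma). The probe lies at chr8:48106487-48106546 of rn4, at position 4023 of its transcript, and was spotted 10 times per array. Among these spots the SD on the log2 scale was 0.040 to 0.106, less than the 0.23 SD between control arrays. The 3 AACO arrays had an SD of 0.01, lower than in all but 0.73% of the genes tested. With no scaling between arrays the difference was 0.87 with an adjusted p of 0.0195 (limma), but there the median of all genes moved from 0.04 to 0.52 and 31.3% of genes were called higher.

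Scn3b encodes the beta-3 subunit, which binds sodium channels noncovalently. Its level was 0.09, -1.23 and -0.05 with AACO and -0.01, 0.29 and 0.05 in controls. AACO array 2 alone was low, and the other AACO arrays lay within or next to the control range. The difference was -0.51 ± 0.35 (SE; 95% interval -1.35 to 0.34), with an adjusted p of 0.367 (limma). Both spots of AACO array 2 were dim, at processed signals of 853 and 989, so the low value was not the work of a single spot. The probe lies at chr8:43253930-43253989 of rn4, on the same chromosome as those of Scn4b and Hcn4.

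**Figure D2:**
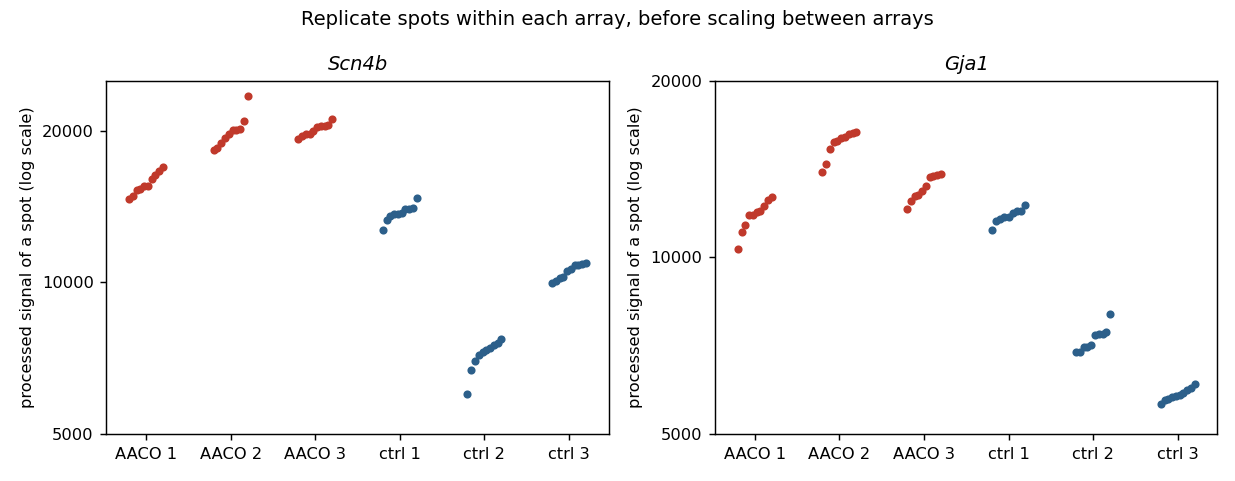
Processed signal of each replicate spot of Scn4b and Gja1 before any scaling between arrays, on a log2 axis, with AACO arrays in red and control arrays in blue. Spots of an array cluster tightly, and most arrays differ by more than their spots do; for Gja1, AACO array 1 and control array 1 have the same mean signal of 11770.

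The other genes of the sodium channel did not pass the test. Of 11 further sodium channel genes, 5 were tested, 0 rose and 0 fell, with a median log2 fold change of 0.26. An unadjusted p under 0.05 (limma) was found in 2 of the 5, beside 30.8% of all genes. Scn7a, a sodium-sensing channel of glia and nerve, was at 0.73 and 0.90 on AACO arrays 1 and 2, at -0.48 on AACO array 3 and between -1.01 and -0.20 in controls. The nerve and Schwann cell marker list had its higher sums on the same AACO arrays 1 and 2, and its part in the Scn7a values was not tested. Scn10a, Scn9a and Scn11a, the sensory neuron channels, were well above background on 0 of 6 arrays.

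Proteins that anchor, modulate or degrade the sodium channel gave 11 tested genes of 14, with a median of 0.28. Of these, 2 rose, 1 fell and 8 did not pass the test, beside 6.32% higher and 4.94% lower among all genes. Ank3, ankyrin-G, which tethers the sodium channel at the intercalated disc, was at -2.14, -2.50 and -2.95 with AACO and between -3.76 and -3.27 in controls. It rose by 0.96 ± 0.23 (SE) with an adjusted p of 0.0493 (limma), and without 1 array it kept the call only when AACO array 3 was left out. The Ank3 call was also lost under normexp (0.59, adjusted p 0.0759) and with no filter on dim probes (adjusted p 0.0581, both limma). Ank2, ankyrin-B, was well above background on 0 of 3 control arrays and passed the filter on dim probes only through the AACO arrays, so its call gives no support to the list. Under the main processing only a bound can be given. The Ank2 mean with AACO was at least 1.31-fold the lowest signals well above background on the control arrays. The adjusted p of 0.0167 (limma) belongs to the measured difference of 1.88, not to this bound. Its direction did not hold in every processing, with a log2 difference of -0.01 under normexp background correction. Without Ank2, 1 of 10 partners rose and 1 fell, with a median of 0.19. Nedd4l, a ubiquitin ligase that removes sodium channels from the membrane, fell by 0.50 on the log2 scale (SE 0.12; adjusted p 0.0467, limma). A second Nedd4l probe pointed the other way, at 0.52 with an adjusted p of 0.0722 (limma), so the transcripts read by the 2 probes did not give 1 direction, and with no scaling the first probe gave -0.01. The Nedd4l call was also lost under median scaling (adjusted p 0.0625), spike-in scaling (0.189) and no filter on dim probes (0.0613, limma), and the mean of its probes gave 0.01. It was lost in each of the 6 single-array omissions, and the Ank2 call in 3 of them, those of AACO arrays 1 and 2 and of control array 3.

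Hcn2 was measured by a probe in a stretch that reads open in 2 of 3 frames, at chr7:11485814-11485873 of rn4, and Gjc1 by one at position 1302 of its transcript, for which the array file gives no genome position. Their sequences are shown, 5′ to 3′ and in lower case, because they are the bases whose signal is reported for these channels.
Hcn2 probe: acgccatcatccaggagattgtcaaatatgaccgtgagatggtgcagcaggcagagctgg
Gjc1 probe: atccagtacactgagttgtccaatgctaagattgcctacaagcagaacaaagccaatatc
Their GC content was 53.3% and 41.7%, and that of the other 5 members' probes 35.0 to 48.3%.

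Hcn2 was lower on 2 AACO arrays and not on the third. Its level was -1.81, -1.54 and -0.61 with AACO and -0.89, -0.87 and -0.81 in controls. AACO arrays 1 and 2 were below all controls and AACO array 3 above all of them, so the groups overlapped. The difference was -0.47 ± 0.30 (SE; 95% interval -1.19 to 0.26), with an adjusted p of 0.338 (limma). Without AACO array 3 it was -0.82 with an adjusted p of 0.0237, the only single-array omission under which any of the 7 genes passed the test. The controls were tight, with an SD of 0.04 that was lower than in all but 8.35% of genes, while the AACO SD of 0.63 was higher than in 96.8% of genes.

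Hcn2 shared its array pattern with Hopx, a homeodomain protein of the conduction system and working myocardium, at 0.94, 1.09 and 2.13 with AACO and 1.83 to 2.17 in controls (r 0.958 and rho 0.66 over 6 arrays). The r was 0.311 once AACO arrays 1 and 2 were left out, so this likeness rests on those arrays. Each r given here is a description over 6 arrays that share a scaling and contain the group difference, chosen from 145 listed genes. Hopx did not pass the test (adjusted p 0.271, limma). AACO arrays 1 and 2 were also those on which Myl7 and Sln were high, and with their mean level as a covariate the Hcn2 difference was 0.24 with an adjusted p of 0.793 (limma). These 2 genes were picked after their values were seen. With that covariate 0 genes of the whole table were called, so a high adjusted p there is not particular to Hcn2.

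Hcn4 had the widest spread of the 7 genes. Its level was -0.13, -2.57 and -3.23 with AACO and -1.16, -3.73 and -2.23 in controls. AACO array 1 and control array 1 were high, control array 2 was low, and the groups overlapped over most of their range. The SD was 1.64 with AACO and 1.29 in controls, higher than in 99.8% and 99.2% of all genes tested, against a median SD of 0.16 and 0.15. The difference of 0.40 ± 0.95 (SE; 95% interval -1.90 to 2.70; adjusted p 0.808, limma) leaves a change of several-fold in either direction within the interval. On control array 3 the 2 spots of the probe read 169 and 484, and with the dimmer or the brighter alone the difference was 0.65 or 0.14. On AACO array 1 both spots were bright, at 1490 and 1607, and on control array 2 both were dim, at 78.9 and 105. The probe lies at chr8:62667159-62667218 of rn4.

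**Figure D3:**
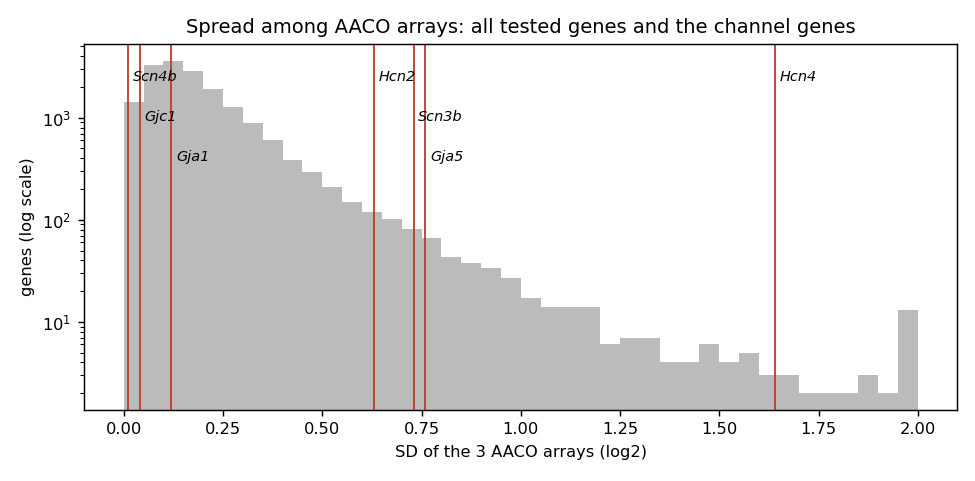
Histogram of the SD among the 3 AACO arrays for all genes tested (log2 units, log count axis), with a red line at each channel gene. The last bar also holds every larger SD. Scn4b and Gjc1 lie at the left edge, Gja1 near the bulk, and Hcn2, Scn3b, Gja5 and Hcn4 in the right tail.

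Of the listed genes, Cpne5 and Irx3 were most like Hcn4 over the 6 arrays. Cpne5, a copine used as a conduction tissue marker, gave r 0.913 and rho 0.94, and Irx3, a homeobox factor of the fast-conducting Purkinje system, r 0.886 and rho 0.94. Irx3 was at -2.02, -4.04 and -4.13 with AACO and -3.66, -6.05 and -3.44 in controls, so AACO array 1 was the highest and control array 2 the lowest, as for Hcn4. Without those 2 arrays r was 0.595 for Cpne5 and 0.666 for Irx3. Neither gene differed between groups. The 8 tested conduction tissue markers summed to 1.59, 1.55 and 1.29 with AACO and 0.87, 1.32 and 1.0 in controls. All 8 had differences above 0, beside 54.8% of all genes, with a median of 0.50. Only 1 passed the test, beside 6.32% of all genes higher: Rgs6, a regulator of G protein signalling, by 0.83 (adjusted p 0.0322, limma). Vsnl1, higher on every AACO array than on any control, gave 2.53 (adjusted p 0.0515, limma). A dimmer Igfbp5 probe gave 1.21 (adjusted p 0.0703) and the brightest 0.22 (adjusted p 0.391, limma). Cacna2d2 and Ntm of the same list were too dim to test. The part of that list in the Hcn4 values was not tested.

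Other pacemaker genes were few on these arrays. Of 10 further genes, 5 were tested, and 0 rose and 0 fell, with a median of 0.76. An unadjusted p under 0.05 (limma) was found in 2 of the 5, beside 30.8% of all genes. Kcne2, a small subunit that can associate with HCN channels, was at -3.12, -2.98 and -3.68 with AACO and between -4.26 and -3.87 in controls. Those groups did not overlap, as in 37.4% of all genes, and the difference was 0.76 ± 0.21 (SE) with an adjusted p of 0.0683 (limma). Cacna1h, a T-type calcium channel, was at -1.76, -2.34 and -2.26 with AACO and -2.19, -3.78 and -4.04 in controls, with an adjusted p of 0.151 (limma). The sinus node factors Shox2 and Isl1 were well above background on 2 and 0 of 6 arrays and were not tested.

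Gja1, the main connexin of working myocardium, was at 2.80, 2.85 and 2.62 with AACO and 2.74, 2.59 and 2.12 in controls. Control array 3 was the lowest, and the other controls lay within or just under the AACO range, so the groups overlapped. The difference was 0.27 ± 0.18 (SE; 95% interval -0.16 to 0.70) with an adjusted p of 0.344 (limma). The 9 or 10 spots per array had an SD of 0.033 to 0.089, against 0.32 between control arrays. With no scaling Gja1 was 0.76 higher with an adjusted p of 0.0393 (limma), under the same shift of all genes as for Scn4b. Its probe lies at chr20:35422026-35422085 of rn4. The closest listed gene was Lrrc39, a sarcomere M-band protein (r 0.962, rho 0.89; 0.781 without control array 3 and AACO array 2).

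Gja5, the connexin of atria and Purkinje fibres, was at -0.54, -1.91 and -1.79 with AACO and -0.98, -1.50 and -1.37 in controls. AACO array 1 was the highest and AACO arrays 2 and 3 were the lowest, so the controls sat between them. The AACO SD of 0.76 was higher than in 98.1% of genes, and the difference was -0.13 ± 0.38 (SE; 95% interval -1.04 to 0.78; adjusted p 0.843, limma). The probe lies at chr2:191843785-191843844 of rn4. Gja5 tracked Hcn4 more than any other pair of the 7 genes did (r 0.86, rho 0.77 over 6 arrays; 0.89 without AACO array 1 and control array 2). Both were highest on array 1 of each group, and array numbers do not link animals between groups. Scn1a was the listed gene most like Gja5 (r 0.915, rho 0.83), then Cpne5 (r 0.838, rho 0.83), falling to 0.652 and 0.446 without AACO arrays 1 and 2. The arterial endothelium list, where Gja5 is also found, summed to 1.02 to 1.09 with AACO and 1.0 to 1.12 in controls, and 0 of its 9 genes differed. In bulk RNA, a smaller share of Gja5-bearing or Hcn4-bearing tissue in a sample and less RNA per cell cannot be told apart.

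**Figure D4:**
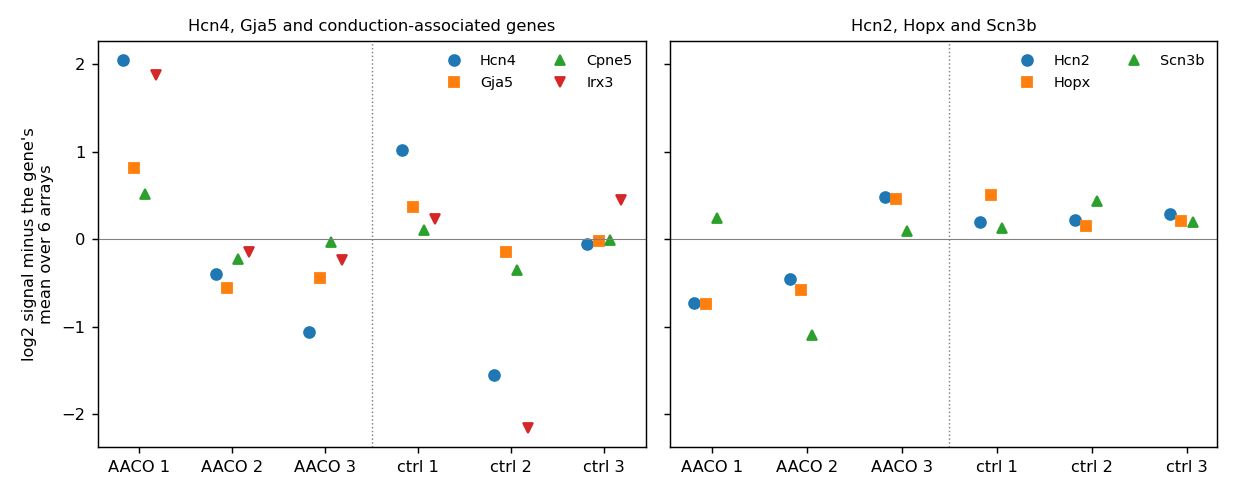
Level of each gene on each array minus its own mean over the 6 arrays (log2 units), for Hcn4, Gja5, Cpne5 and Irx3 on the left and Hcn2, Hopx and Scn3b on the right. Hcn4, Gja5, Cpne5 and Irx3 are all highest on AACO array 1, while Hcn2 and Hopx are lowest on AACO arrays 1 and 2.

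Gjc1, the connexin of nodal tissue, was at -2.79, -2.83 and -2.87 with AACO and -3.13, -2.72 and -3.00 in controls. The AACO arrays lay within the control range. The difference was 0.12 ± 0.13 (SE; 95% interval -0.19 to 0.43; adjusted p 0.551, limma), the narrowest interval of the 7 genes, which leaves out a change of 1 log2 unit in either direction. On control array 1 the spots read 158 and 254, and on the other arrays the spot SD was 0.035 to 0.096 on the log2 scale. Myl3, the ventricular light chain, was the most like it (r 0.959, rho 0.94; 0.796 without control arrays 1 and 3), then Smoc2, a matrix protein (r 0.953, rho 0.94; 0.625 without the same arrays).

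**Figure D5:**
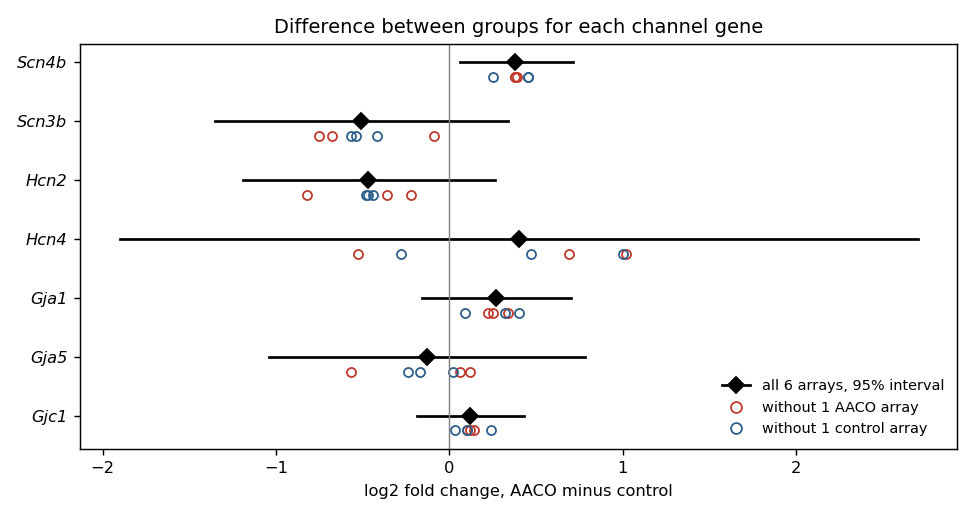
Log2 fold change of AACO minus control for each channel gene with its 95% interval (black), and the estimate after leaving out 1 AACO array (red circles) or 1 control array (blue circles). Circles cross 0 for Hcn4 and Gja5, and Scn4b is the only gene whose interval lies above 0.

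Among the wider connexin family 1 gene rose. Of 20 other connexins and pannexins 11 were tested, 1 rose, 0 fell and 10 did not pass, with a median of 0.11. Over all genes 6.32% rose and 4.94% fell. Gja3, a connexin best known from the lens, was at -1.65, -1.79 and -2.30 with AACO and -2.72, -2.61 and -3.01 in controls. Every AACO array was above every control, as in 21.5% of all genes. Gja3 rose by 0.87 ± 0.20 (SE; adjusted p 0.043, limma), and of the single-array omissions only that of AACO array 3 kept the call. It was also lost under normexp (0.53, adjusted p 0.0674) and with no filter on dim probes (0.87, adjusted p 0.0544, both limma). Gjb1, a connexin of liver and Schwann cells, was well above background on 0 of 3 control arrays, and no fold can be given. Of the 20, 9 were too dim to test.

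Intercalated disc genes, which hold the plaques of Gja1 and the sodium channel in place, gave 19 tested genes of 21, with a median of 0.12. Of these, 1 rose and 0 fell, beside 6.32% higher and 4.94% lower among all genes. Tmem65, a disc membrane protein known to bind the Gja1 protein, was at -0.09, -0.37 and -0.64 with AACO and -1.06, -1.16 and -1.17 in controls. It rose by 0.76 ± 0.15 (SE; adjusted p 0.0323, limma), and again the call held only without AACO array 3 among the single-array omissions. Xirp1, an actin-binding disc protein, was lower on every AACO array, at -0.32, -0.37 and -0.06 against 0.20, 0.01 and 0.16, with an adjusted p of 0.099 (limma). Its groups did not overlap, as in 37.4% of all genes. Dsp, Pkp2 and Nrap of the list were also below every control on each AACO array. Their differences were -0.27, -0.43 and -0.38, with adjusted p of 0.101, 0.116 and 0.135 (limma). Of the 19 genes, 12 had differences above 0. An unadjusted p under 0.05 (limma) was found in 5, beside 30.8% of all genes. The list's summed level was 6.48 to 6.76 with AACO and 6.79 to 6.98 in controls, the opposite sign to its median, since a sum is led by its brightest genes.

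Transcription factors of chamber and conduction myocardium gave 14 tested genes of 17, with a median of 0.41. Of these, 3 rose and 0 fell, beside 6.32% higher and 4.94% lower among all genes. Hey2, a ventricular repressor that acts below Notch, was at -0.85, -0.38 and -0.86 with AACO and -2.01, -1.64 and -2.11 in controls. It rose by 1.22 ± 0.19 (SE; adjusted p 0.0165, limma), and its second probe by 1.31 (adjusted p 0.0203). Id2, an inhibitor of helix-loop-helix factors required for the ventricular conduction system, rose from -0.89 ± 0.04 to -0.19 ± 0.19 (SD, n = 3; adjusted p 0.0218, limma). Tbx2, a T-box repressor of Gja1 and Gja5 in slow-conducting tissue, rose from -0.89 ± 0.05 to -0.40 ± 0.07 (SD, n = 3; adjusted p 0.0266, limma). All 3 kept their sign in every setting tried, but Tbx2 lost its call under spike-in scaling (0.54, adjusted p 0.0629, limma). Of the 6 single-array omissions, Hey2 kept its call in 3 and Id2 and Tbx2 in 2 each, all 3 losing it without AACO array 1, AACO array 2 or control array 3. Tbx3 and Tbx5 did not pass, at differences of -0.17 and 0.02. Over the 6 companion lists, 7 of 65 tested genes rose and 1 fell, 12.3% against the 11.3% of all genes. Without the 3 genes that were well above background on no array of a group, 6 of 62 rose and 1 fell. With Myl7 and Sln as a covariate none of the 8 passed, as was the case for all genes.

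Promoter sequence was read for the 4 members with an entry in the RefSeq promoter table (build GRCr8), Scn4b, Hcn2, Gja1 and Gja5, over the 250 bases before the annotated start. The windows of Scn4b, the only gene whose groups did not overlap, and Gja1, the only one with a motif match, are printed 5′ to 3′ in the direction of transcription. Capitals mark the match.
Scn4b, chr8:54343623-54343872, plus strand: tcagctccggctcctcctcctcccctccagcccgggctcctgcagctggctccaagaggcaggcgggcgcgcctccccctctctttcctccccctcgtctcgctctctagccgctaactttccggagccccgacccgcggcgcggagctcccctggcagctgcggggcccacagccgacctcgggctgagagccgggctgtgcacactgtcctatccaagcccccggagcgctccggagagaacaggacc
Gja1, chr20:36302314-36302563, plus strand: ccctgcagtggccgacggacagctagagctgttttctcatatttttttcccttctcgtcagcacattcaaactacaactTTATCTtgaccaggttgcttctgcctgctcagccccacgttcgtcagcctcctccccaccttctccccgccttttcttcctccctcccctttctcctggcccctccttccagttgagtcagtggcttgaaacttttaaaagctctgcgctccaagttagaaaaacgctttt
GC content was 71.6% for Scn4b and Hcn2, 51.2% for Gja1 and 54.8% for Gja5, beside a median of 51.2% over 33469 promoters. The GATA motif AGATAA, searched on both strands, occurs in 10.3% of those promoters and in 1 of the 4, Gja1, on the minus strand at 171 to 166 bases before the start. The T-box motif AGGTGT (11.6% of promoters), the E-box CACGTG (5.59%), the D-box TTATGTAA (0.828%) and the NK2 motif TNAAGTG (9.89%) had no match in the 4 windows. A match or its absence describes only these letters in these windows.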

How the data were processed

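Whole heart RNA from 3 AACO and 3 control animals was hybridised to 6 Cy3 arrays, 0.2 ug RNA each, per the labels' protocols. Agilent Feature Extraction 10.7.1.1 was used per the file headers. The intensity deposited for each spot is its processed signal, with background corrected and arrays unscaled. A series matrix deposited by the authors gives log2 values with a column median of 6.7709 and r of 0.99991 to 0.99999 with log2 scanner signal; its scaling is not stated, and it served as an alternative.

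From these, log2 signal was taken without control and outlier-marked spots, spots of a probe were averaged, and the array's 75th percentile over non-control spots was subtracted. Of 30357 complete probes, 20112 well above background on at least 3 arrays were kept, the brightest per gene. limma 3.58.1 (R 4.3.3) compared the groups, two-sided, over 17536 genes, and the code was tested on simulated data. RefSeq names matched 18005 probes. Members and lists were chosen with earlier results of these data known. Named genes were all members, the called genes of each companion list (or the 2 of smallest p), the 2 brightest of each marker list and the 2 listed genes most like each member; some of these are not reported here. Per the labels different donors were used, and replicate numbers follow accession order. The alternatives concerned background, scaling, filter, probe choice, variance prior, a Myl7 and Sln covariate and each array left out. The 2 covariate genes were picked after their values were seen. Single Hcn4 spots and the counts without genes measured in 1 group were added after seeing the data. The small number of arrays limits precision.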

Additional observations from a re-analysis of the deposited data

How the results depend on the processing

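No paired analysis was possible because the labels give the groups no shared replicate numbers. Genes called over the whole table numbered 1108 higher and 867 lower. Lower calls were 1528 with normexp, 505 with spike-in scaling and 1401 with no filter on dim probes; with no scaling there were 5493 higher and 232 lower, and with the Myl7 and Sln covariate 0 and 0. Leaving out 1 array gave 108 to 1225 higher and 148 to 937 lower. Of the 7 channel genes, 2 passed with no scaling, and 0 to 1 when 1 array was left out. Several differences changed sign without passing the test. Gjc1 was -0.04 with normexp, and Hcn2 was 0.02 and Gja5 0.36 with no scaling. With the covariate Scn3b was 0.16, Hcn2 0.24 and Hcn4 -0.36. Hcn4 was -0.53 without AACO array 1 and -0.28 without control array 2, in a range of -0.53 to 1.02 over single-array omissions. Gja5 was 0.12, 0.06 and 0.02 without AACO array 2, AACO array 3 and control array 1, in a range of -0.57 to 0.12. The cause was not tested, other than that no scaling moves all genes together. Scn4b (0.25 to 0.87) and Gja1 (0.09 to 0.76) stayed above 0 in all 18 settings. With 3 arrays a group, and slide and scan shared with treatment, the Scn4b difference of 0.38 stood beside a control SD of 0.23. It did not pass the main test (adjusted p 0.115, limma). A Hcn4 difference of 1 log2 unit either way lies inside the Hcn4 interval.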
